A study of Mus musculus with 6 samples.

Results

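Myb, Mef2c, Zeb2, Mecom, Sox4, Hlf, Jmjd1c, Eya1 and Hmgb3 are 9 transcription and chromatin regulators that belong to the wider program of MLL-AF9 target genes, beyond Hoxa9 and Meis1. Chromatin accessibility at these 9 loci was measured by ATAC-seq, in which the Tn5 transposase inserts sequencing adapters into open chromatin. A locus was the gene body with 50 kb on either side in the GENCODE M21 annotation of mm10 (GRCm38), and every deposited peak that overlapped a locus was taken. The loci held 638 of the 438111 peaks in the 6 peak lists, and 153 of the 112852 regions obtained by merging overlapping peaks. The samples were 3 control and 3 MMF-treated preparations of L-GMPs, the granulocyte-macrophage progenitor-like leukemia stem cells (LSCs) sorted from mice with MLL-AF9 leukemia. All 6 carried the retroviral MLL-AF9 oncogene in cells labelled as wild type, and were cultured with IL3. The untreated group is labelled Control. Mycophenolate mofetil (MMF) inhibits IMPDH, the rate-limiting enzyme on the way to guanine nucleotides, and the labels give 24 h of culture for both groups. The study's methods state 500 nM for 24 h, whereas its figure legends state 250 nM for 16 h. The study describes its replicates in general as biologically independent, but no source used here ties the ATAC-seq samples to separate mice or cultures, so the p-values measure only the spread between these samples.

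MLL-AF9 fuses the DNA-binding part of the histone methyltransferase MLL to a subunit of the transcription elongation machinery, and with its partner menin it keeps genes of hematopoietic stem and progenitor cells active in leukemia. Open chromatin at such genes lies at promoters, where transcription starts, and at distal elements in introns or between genes, where lineage factors such as C/EBP and PU.1 bind. The comparison of MMF with control asks whether blocking guanine nucleotide synthesis changes accessibility at these elements.

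The 11 regions with called differences at the loci all lay outside promoters, and all were more accessible with MMF. They fell in the Zeb2 (5 regions), Jmjd1c (4), Myb (1) and Eya1 (1) loci, with mean levels between 1.57 and 2.18 times those of control. These 11 were 25.6% of the 43 non-promoter regions of the loci with a peak in all 6 lists. Over the whole series, 24.5% of such regions were called higher. No promoter region of the 9 genes was called in either direction, with starts taken from the GENCODE M21 basic annotation. When samples were instead centred on their median, the calls at the loci were 2 higher and 9 lower. The sequences around the summits of 6 of these 11 regions, and of 1 region seen in MMF lists only, are shown to make the elements behind the results explicit. Each covers 200 bp around a summit, on the plus strand of GRCm38, and capitals mark matches to the consensus letters that were searched. Distances are from the nearest start of the named gene.
Zeb2 intron, 24.5 kb from a start (chr2:45085719-45085918): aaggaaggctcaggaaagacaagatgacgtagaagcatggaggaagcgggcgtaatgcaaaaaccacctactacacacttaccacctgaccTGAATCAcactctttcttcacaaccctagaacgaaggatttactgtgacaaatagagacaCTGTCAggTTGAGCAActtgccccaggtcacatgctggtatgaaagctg
Zeb2 downstream, 140.8 kb from a start (chr2:44969422-44969621): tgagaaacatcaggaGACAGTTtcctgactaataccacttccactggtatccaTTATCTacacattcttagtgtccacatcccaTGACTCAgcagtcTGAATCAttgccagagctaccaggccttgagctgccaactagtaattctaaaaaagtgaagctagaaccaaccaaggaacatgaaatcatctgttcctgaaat
Myb intron, 14.3 kb from a start (chr10:21146479-21146678): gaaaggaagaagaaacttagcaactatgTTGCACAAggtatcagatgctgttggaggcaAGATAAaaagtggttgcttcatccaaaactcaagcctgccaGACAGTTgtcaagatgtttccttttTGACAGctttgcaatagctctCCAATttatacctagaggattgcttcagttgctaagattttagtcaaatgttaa
Myb upstream, 31.7 kb from a start (chr10:21192542-21192741): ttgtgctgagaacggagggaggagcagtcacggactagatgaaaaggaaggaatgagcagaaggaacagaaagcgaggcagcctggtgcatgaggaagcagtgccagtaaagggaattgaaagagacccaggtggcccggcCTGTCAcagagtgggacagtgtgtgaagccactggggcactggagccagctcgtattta
Jmjd1c intron, 19.4 kb from a start (chr10:67205036-67205235): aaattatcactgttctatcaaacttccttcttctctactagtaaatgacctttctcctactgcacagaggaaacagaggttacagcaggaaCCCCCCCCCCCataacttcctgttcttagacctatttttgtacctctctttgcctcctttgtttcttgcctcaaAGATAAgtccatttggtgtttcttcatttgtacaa
Jmjd1c coding exon, 40.4 kb from a start (chr10:67226091-67226290): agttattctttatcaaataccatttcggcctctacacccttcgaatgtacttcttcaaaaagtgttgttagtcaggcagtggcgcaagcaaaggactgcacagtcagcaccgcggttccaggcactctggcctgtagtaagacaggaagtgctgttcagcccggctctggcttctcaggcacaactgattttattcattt
Eya1 intron, 81.9 kb from a start (chr1:14222545-14222744): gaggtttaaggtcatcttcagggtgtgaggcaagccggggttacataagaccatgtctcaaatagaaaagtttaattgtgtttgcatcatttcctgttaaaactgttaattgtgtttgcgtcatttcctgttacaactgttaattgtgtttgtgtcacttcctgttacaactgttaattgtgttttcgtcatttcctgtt

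Matches to consensus letters of 11 factors were counted in a window of 200 bp around every summit, on either strand, at the loci and over the whole series. AP-1 letters (TGANTCA) were found in 4 of the 11 called regions, 3 of them at Zeb2, where 17.9% of all non-promoter regions of the series hold them in a window of the same length. GATA letters (AGATAA) were also found in 4 of the 11, where the share over all non-promoter regions was 7.6%. The Zeb2 downstream element held a pair of AP-1 matches within 20 bases of its summit, and the Zeb2 intron element held AP-1, MEIS and C/EBP matches. The Myb intron element held the largest variety among the called regions, with C/EBP, GATA, MYB, MEIS and NF-Y letters. The KLF letters of the Jmjd1c intron element came from 1 run of C bases in which 4 overlapping matches were counted. The Jmjd1c coding exon element lay in exon 10 of the transcript Jmjd1c-201 and, like the Eya1 intron element, held none of the searched letters. The Eya1 window is a tandem repeat, and 65.1% of its bases matched the base 34 positions further on. For the other called windows this self-match was at most 37.6% at any shift between 10 and 100 bases. C/EBP letters (TTGCNNAA) were in 2 of the 11 called regions, against 16.3% of all non-promoter regions. PU.1 letters (GAGGAAGT) were in 1 of the 11, against 9.05%. NF-Y and KLF letters were in 1 of the 11 each, against 22.7% and 20.0% of all non-promoter regions, MYB and MEIS letters in 2 each, against 26.0% and 16.8%, and RUNX, ETS and CTCF letters in 0, against 12.0%, 0.582% and 6.62%. Over all 153 regions of the loci and the 112852 regions of the series, the shares with a match were 14.4% against 15.0% for C/EBP, 5.88% against 8.28% for PU.1, 9.15% against 6.92% for GATA and 19.6% against 16.1% for AP-1. Letters of NF-Y, the factor of promoter CCAAT boxes, were in 21.6% against 23.5%, and those of KLF factors (CCNCNCCC) in 24.8% against 25.0%. RUNX letters, spelled AACCACA, were in 11.1% against 10.7%. MYB letters, spelled AACNGNC, were in 24.2% against 25.6%. MEIS letters, spelled TGACAG, were in 19.6%, where 11.5% of all promoter regions and 16.8% of all others hold them. The core consensus of CTCF was in 2.61% against 5.95%. ETS letters (CCGGAAGT) were in 0 of the 153 regions and in 1.3% of all regions. A match describes these letters and says nothing about whether a factor was bound.

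Levels were taken from the deposited fold enrichment and p of each peak, which together fix how many reads lay over the summit and how many were expected there. The level of a region is the ratio of its summit reads to the genome-wide background of its sample, which scales with depth. That background was 0.620 to 0.729 reads in control and 0.676 to 0.909 reads in MMF-treated LSCs, and the median summit held 14 to 19 reads. The control lists held 58496 to 63911 peaks and the MMF lists 80893 to 86556. As a check of the labelled cell type, Kit, Spi1, Cebpa and Flt3 had a promoter peak in all 6 lists, whereas Mpo, a defining granule gene of granulocyte-macrophage progenitors, had none. The 5 other progenitor genes of that list were in some lists only. Cd34 was in 3 control and 2 MMF lists, the Fc receptor gene Fcgr3 and the granule gene Elane in 1 control and 3 MMF lists each, and Cebpe and Csf1r in 2 control and 3 MMF lists each. Of the markers of other cells, 1 of 5 T cell genes (Bcl11b), 1 of 4 erythroid genes (Klf1) and 1 of 5 non-blood genes (Col1a1) were present in all 6 lists. Of the other erythroid genes, Epor was in 2 control and 3 MMF lists, Hbb-bt in 1 control list and Gata1 in none. The non-blood gene Myod1 was in 1 control and 1 MMF list. The T cell genes Cd3e, Cd3g, Cd4 and Cd8a and the non-blood genes Alb, Krt14 and Neurod1 had no promoter peak in any list. In bulk samples, fewer cells of a type and less open chromatin per cell cannot be told apart.

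Of the 153 regions, 57 had a peak in all 6 lists and were tested. Of the other 96, 4 were gained (in all 3 MMF lists and no control list), 0 were lost (the opposite), and 92 were in other combinations of lists, 33 of them in a single list. A region missing from a list has no level there and was not tested. The 57 were compared with limma on log2 levels, fitted on all 41182 shared regions of the series with Benjamini-Hochberg adjustment over all of them and a threshold of 0.05. Among the 57, 11 or 19.3% were called higher with MMF and 0 lower, where 18.6% of all shared regions were called higher and 0.969% lower. At an unadjusted p under 0.05 the counts in the loci were 16 higher and 3 lower. The median log2 difference was 0.25 in the loci and 0.17 over all shared regions. The share called and the median of the loci thus lay near those of the whole series.

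The split between directions depended on scaling. Subtracting from each sample its median over shared regions shifts every difference down by 0.35 on the log2 scale, and the calls in the loci were then 2 higher and 9 lower, against 6.9% and 13.9% of all shared regions. Centring on the median ratio between samples, an alternative added after the data were seen, shifts differences down by 0.18 and gave 6 higher and 3 lower, against 9.99% and 2.81%. The 2 regions called higher under all 3 scalings were the Zeb2 intron element 24.5 kb from a start and the Zeb2 downstream element 140.8 kb from a start. The 9 called lower with median centring were 5 promoter regions, the upstream Sox4 regions at chr13:28957867-28958110 and chr13:28959498-28959827, the upstream Hmgb3 region at chrX:71524249-71524644 and the Mef2c intron region at chr13:83539879-83540461. By log2 fold enrichment 5 of the 11 remained called, 3 of them at Zeb2 and 2 at Jmjd1c. By the rank of fold enrichment among shared regions none of the 11 did. Of all shared non-promoter regions, 14.9% and 1.93% were called higher by these 2 measures.

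**Figure D1:**
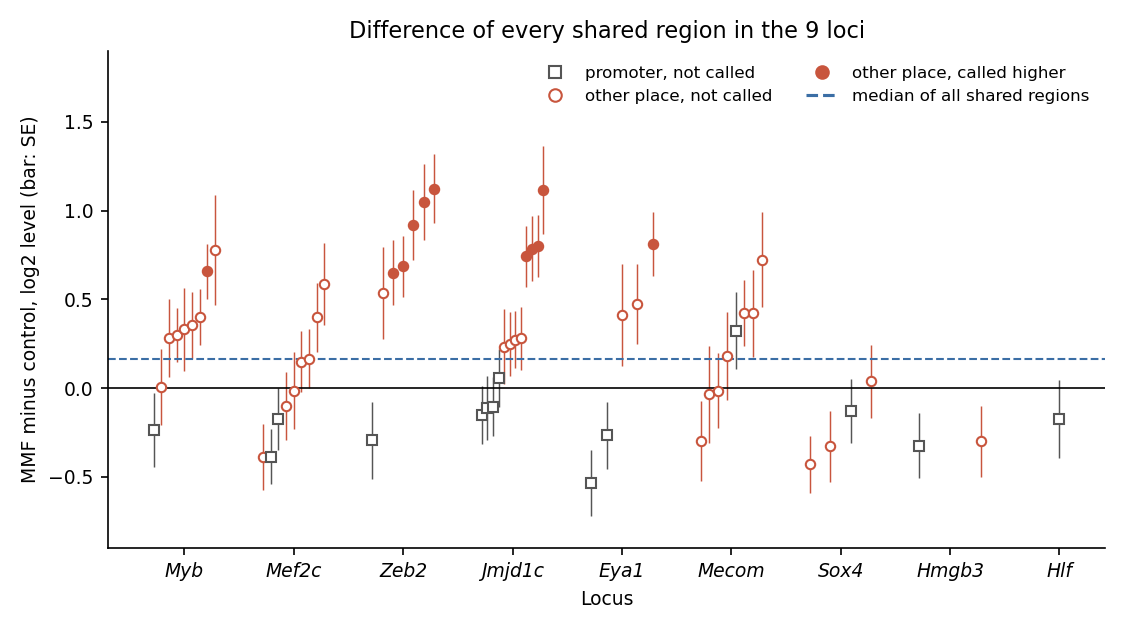
Difference between MMF and control in log2 level (y axis, bars are SE, 3 samples a group) for the 57 shared regions, by locus (x axis). Squares are promoter regions, circles are other places, filled symbols are the 11 called higher, and the dashed line is the median of all shared regions at 0.17. The Zeb2 and Jmjd1c loci hold 9 of the 11 filled circles, and 12 of the 14 squares lie below 0.

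By level, promoters and other places differed in sign at these genes, as they did over the whole series, but the sign depended on the scaling and the measure. Within 1 kb of a start of a protein-coding gene lay 14 shared regions. Of these, 12 were of the 9 genes, and 1 each of the neighbors Reep3 and Nrbf2 in the Jmjd1c window. Among the 14 the median log2 difference was -0.17 and 12 were negative, against a median of -0.09 over all 11556 shared promoter regions. None of the 14 was called by limma, against 3.25% of all shared promoter regions called higher and 1.19% lower, and 2 of the 14 passed an unadjusted p of 0.05, both lower. In 2 of the 14 the 3 MMF values lay below the 3 control values, which was so for 16.7% of all shared promoter regions, and 0 of the 14 lay above, against 7.64%. Of all shared promoter regions, 65.1% had a negative difference. Among the 43 non-promoter regions the median was 0.35 against 0.32 over all 29626, and 34 were positive, against 76.1% of all. Of the 43, 11 or 25.6% were called higher, near the 24.5% of all non-promoter regions, and 0 were called lower, against 0.884%. The MMF values lay above all control values in 19 of the 43, where 37.5% of all non-promoter regions did so, and below in 2, where 4.16% did so. These non-promoter shares sit near those of the whole series, so they are not particular to the 9 genes. At promoters, 12 of the 14 were negative against 65.1% of all, a difference that was not tested. By the deposited fold enrichment over local background, on the log2 scale, 10 of the 14 promoter regions were positive and 4 negative, with a median of 0.08 against 0.01 over all shared promoter regions, and the non-promoter median was 0.31 against 0.25. Of all shared promoter regions, 52.9% were positive by that measure. With samples centred on their median, all 14 promoter regions were negative, as were 91.7% of all shared promoter regions. The non-promoter regions were then 21 positive and 22 negative, where 53.2% of all were negative, with a median of -0.0018 against -0.04 over all of them. The difference between promoters and other places thus kept its order under these measures, whereas the sign of each median moved with them.

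Zeb2 encodes a zinc finger repressor that binds E-box sequences and acts in stem cells and in myeloid differentiation. Of its 22 regions, 7 were shared. Of the 6 outside its promoter, 5 were called higher with MMF, against 24.5% of all shared non-promoter regions of the series. The intron element at chr2:45085637-45086108 had levels of 23.3, 21.7 and 30.7 in control and 62.7, 46.7 and 54.7 in MMF-treated LSCs. It showed the largest log2 difference of the loci, 1.12 ± 0.19 (SE, limma adjusted p = 0.0044), from a mean of 25.2 ± 4.76 to 54.7 ± 7.98 (SD, n = 3), and was called with any 1 sample left out. The lowest MMF value was above the highest control value. The downstream element at chr2:44969290-44969805, past the 3′ end of the gene, rose from 13.7, 14.5 and 16.1 to 37.4, 34.0 and 22.2. That difference was 1.05 ± 0.21 (SE, limma adjusted p = 0.00884), also called with any sample left out, although its 3 MMF samples spread more than its control samples. It rested on few reads, with 10 at the summit in each control sample and 34, 24 and 15 with MMF. The region was therefore not tested in the alternative that required at least 20 summit reads.

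A pair of further downstream elements of Zeb2 lay between the latter and the gene. The element at chr2:44981618-44982009 had levels of 30.2, 33.3 and 43.6 in control and 74.8, 56.7 and 69.5 with MMF, a difference of 0.92 ± 0.20 (SE, limma adjusted p = 0.0106). The element at chr2:44976480-44976850 went from 23.3, 21.7 and 17.7 to 35.2, 32.6 and 32.5, a difference of 0.69 ± 0.17 (SE, limma adjusted p = 0.0199). It holds the PU.1 letters 9 bases from its summit, the only PU.1 match among the called regions. A second intron element, at chr2:45049241-45049704, was the most accessible non-promoter region of the locus, at 41.2, 56.4 and 43.6 in control and 68.2, 82.2 and 69.5 with MMF. Its difference of 0.65 ± 0.18 (SE, limma adjusted p = 0.0332) was lost in 5 of the 6 fits that left out 1 sample, where the adjusted p reached 0.111. The chr2:44976480-44976850 call was lost in 3 of those 6 fits, with adjusted p up to 0.0675 (without Control replicate 3, MMF replicate 1 or MMF replicate 2). Neither of these 2 calls held with either centring, by log2 fold enrichment (limma adjusted p = 0.41 and 0.0508) or by any of the 3 ranks tried. The chr2:44981618-44982009 call was lost with median centring (limma adjusted p = 0.0645) and by both ranks of fold enrichment (0.0637 and 0.166).

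No Zeb2 promoter region was called. The region over the start at chr2:45109618-45110524 had levels of 28.8, 47.8 and 30.7 in control and 31.9, 25.5 and 28.1 with MMF, groups that overlap, with a log2 difference of -0.29 (limma adjusted p = 0.39). The 3 other regions over annotated Zeb2 starts were not in every list. That at chr2:45117098-45117537 was in 3 control and 2 MMF lists at levels of at most 17.8, that at chr2:45112953-45113188, which also overlaps the antisense gene Zeb2os, was in 1 list of each group at 26.1 and 23.1, and that at chr2:45116674-45116828 was in 1 MMF list at 12.8.

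**Figure D2:**
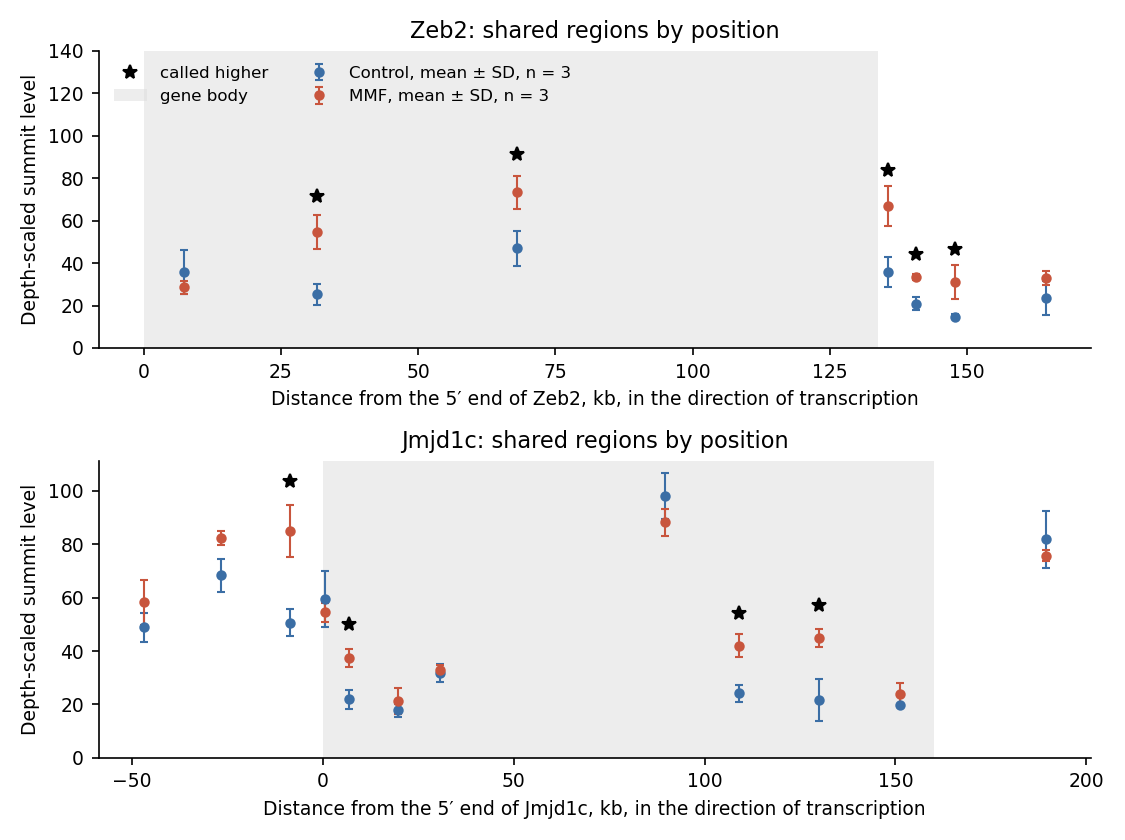
Mean level ± SD (y axis, depth-scaled summit reads, n = 3 a group) of the shared regions of Zeb2 (top) and Jmjd1c (bottom) against distance from the 5′ end of the gene in kb, in the direction of transcription, with the gene body shaded. Stars mark the called regions. All 6 Zeb2 regions outside the promoter have a higher mean with MMF, and 3 of the 5 called ones lie past the 3′ end of the gene.

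Myb encodes a transcription factor that hematopoietic progenitors and MLL-AF9 leukemia cells need for self-renewal. Its locus had 22 regions, 9 of them shared, and peak counts of 14 in each control list and 20, 19 and 18 in the MMF lists. The region at chr10:21146240-21147059 was called. It is intronic in the basic annotation, overlaps the noncoding gene Gm26577 and, in the full annotation, covers part of exon 1 of the transcript Myb-206. Its levels were tight within groups, at 37.0, 34.7 and 33.9 in control and 58.3, 56.7 and 51.8 with MMF. The difference was 0.66 ± 0.16 (SE, limma adjusted p = 0.0165), lost when MMF replicate 1 (0.0588) or MMF replicate 2 (0.0542) was left out. The call was also lost with median centring (limma adjusted p = 0.168), median-ratio centring (0.0697) and log2 fold enrichment (0.288). It was lost by rank of fold enrichment in the whole list (limma adjusted p = 0.452) and by rank of −log10 p (0.096). By rank among shared regions the difference was -0.0225 (limma adjusted p = 0.964). The call held with the replicate number as a block (limma adjusted p = 0.0334) and with at least 20 summit reads (0.00582).

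The strongest Myb region was not at the promoter but downstream, at chr10:21083015-21084160, 77.1 kb from the nearest Myb start. It had levels of 104, 116 and 108 in control and 149, 135 and 149 with MMF, groups that did not overlap, and a difference of 0.40 that did not pass (limma adjusted p = 0.106). The largest non-overlapping difference of the locus, 0.78 at chr10:21206270-21206573 (upstream, within the noncoding gene Gm33728), rested on few reads and on MMF replicate 2, at 8.23, 13.0 and 9.68 in control and 13.2, 29.8 and 13.3 with MMF (limma adjusted p = 0.112). The Myb promoter region at chr10:21160589-21161761 had levels of 53.5, 68.0 and 74.2 in control and 42.9, 65.2 and 59.2 with MMF. These groups overlapped, with a difference of -0.24 (limma adjusted p = 0.481). The upstream region at chr10:21192544-21192721 was gained, at levels of 14.3, 19.8 and 23.7 with MMF and no control peak.

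Mef2c encodes a MADS-box factor of myeloid and lymphoid progenitors. It had 25 regions, 9 shared and none called at the main scaling, although its introns held some of the most accessible elements of the 9 loci. The region at chr13:83571789-83572542, 1.4 kb from a start, had levels of 110, 133 and 111 in control and 125, 129 and 142 with MMF, with overlap and a difference of 0.17 (limma adjusted p = 0.534). The second, at chr13:83609005-83609819, had levels of 68.6, 70.9 and 88.7 against 88.0, 79.3 and 84.3, a difference of 0.15 (limma adjusted p = 0.593). At the start itself lay a pair of adjacent promoter regions. That at chr13:83524141-83524947 had levels of 49.4, 50.7 and 54.8 in control and 37.4, 39.7 and 41.4 with MMF. Every MMF value was below every control value, with a difference of -0.39 ± 0.16 (SE, limma adjusted p = 0.115). It was called lower with centring on the median (limma adjusted p = 0.0189) or on the median ratio (0.0402). Its neighbor at chr13:83523612-83524004 had a difference of -0.17 with overlapping groups (limma adjusted p = 0.543). The largest non-overlapping difference at Mef2c was 0.40 at the downstream region chr13:83715045-83715679, from 22.7 ± 4.31 to 29.7 ± 3.92 (SD, n = 3, limma adjusted p = 0.193).

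Mecom encodes the zinc finger factor EVI1, a regulator of hematopoietic stem cells that marks aggressive MLL-rearranged leukemia. Its locus, the longest of the 9, had 33 regions but only 8 shared ones, and none was called. The region nearest the start of the long transcripts, at chr3:30507852-30509049, had levels of 43.9, 40.5 and 27.4 in control and 38.5, 52.4 and 47.3 with MMF, a difference of 0.32 (limma adjusted p = 0.341) that turned to -0.03 when samples were centred on their median. A start inside the gene, beside the antisense gene Mecomos, had a weak region at chr3:30013020-30013419 that was in 3 control lists at 16.5, 11.6 and 14.5 and in 1 MMF list at 7.70. Its neighbor at chr3:30012276-30012436 was in 1 control list. The strongest other regions were intronic, at chr3:30091752-30092459 with 26.6 ± 2.96 in control and 35.8 ± 5.85 with MMF (SD, n = 3, limma adjusted p = 0.143), and at chr3:30332440-30332911 with 27.9 ± 9.09 and 30.5 ± 3.56 (SD, n = 3, limma adjusted p = 0.666). The largest non-overlapping difference was 0.72 at the weak region chr3:30149660-30150221, where summits held only 4 to 15 reads (limma adjusted p = 0.0885). Both gained regions of the locus were intronic and weak. That at chr3:30234002-30234375 had MMF levels of 8.80, 11.3 and 10.4, and that at chr3:30330536-30330797 had 9.90, 21.3 and 19.2.

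Sox4 encodes an HMG-box factor that promotes the survival and self-renewal of progenitors. Of its 6 regions, 4 were shared and none was called at the main scaling. The strongest distal element, the upstream region at chr13:28957867-28958110 at 4.3 kb from the start, had levels of 45.3, 39.1 and 46.8 in control and 31.9, 31.2 and 34.0 with MMF. Every MMF value was below every control value, with a difference of -0.43 ± 0.16 (SE, limma adjusted p = 0.0908). It was called lower with samples centred on their median (limma adjusted p = 0.0182) or on the median ratio (0.0374), and the Sox4 region at chr13:28959498-28959827 with median centring (0.041). The adjacent region at chr13:28958218-28958770 had 32.3 ± 4.67 in control and 33.5 ± 7.55 with MMF (SD, n = 3, limma adjusted p = 0.922). The promoter region at chr13:28952150-28954052 had 58.0 ± 7.61 in control and 53.1 ± 6.79 with MMF (SD, n = 3), a difference of -0.13 (limma adjusted p = 0.669).

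Hlf encodes a bZIP factor of hematopoietic stem cells, and had the fewest peaks of the 9 genes, 1 or 2 in each list. Its only shared region, the promoter at chr11:90390551-90391103, had levels of 26.1, 20.3 and 30.7 in control and 17.6, 24.1 and 26.6 with MMF. The groups overlapped, with a difference of -0.17 (limma adjusted p = 0.632). The upstream region at chr11:90417991-90418152 was in 2 control and 1 MMF list with 6 summit reads in each, and the downstream region at chr11:90307104-90307253 was in 1 MMF list, so Hlf had no distal region that could be tested.

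Jmjd1c encodes a JmjC-domain protein of the histone demethylase family that acts as a coactivator in leukemia. Its locus had 30 regions, 12 shared, and 22, 19 and 21 peaks in the control lists against 30, 27 and 27 in the MMF lists. Of its 8 shared non-promoter regions, 4 were called higher, against 24.5% of such regions over the whole series. The coding exon element at chr10:67225970-67226326 had levels of 30.2, 20.3 and 14.5 in control and 45.1, 48.2 and 41.4 with MMF, a difference of 1.11 ± 0.25 (SE, limma adjusted p = 0.0124). The control samples of this region ranged from 14.5 to 30.2, yet none reached the MMF values, and the call held with any 1 sample left out. It was lost with median centring (limma adjusted p = 0.0548), by log2 fold enrichment (0.0587) and by all 3 ranks (0.0794 to 0.157). The intron element at chr10:67204755-67205415 had 20.6, 26.1 and 25.8 in control and 45.1, 43.9 and 37.0 with MMF, a difference of 0.80 ± 0.18 (SE, limma adjusted p = 0.0118) that also held in all 6 such fits and was lost with median centring (limma adjusted p = 0.0839).

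The 2 other called regions of Jmjd1c lay near its annotated 5′ end. The region at chr10:67102677-67103116 is intronic to transcripts outside the basic annotation, and had levels of 24.7, 23.2 and 17.7 in control and 34.1, 41.1 and 37.0 with MMF. Its difference of 0.78 ± 0.18 (SE, limma adjusted p = 0.0154) was lost without MMF replicate 2 (0.0594). The region at chr10:67087218-67087860 lies within the neighboring gene Reep3, and went from 45.3, 55.0 and 51.6 to 84.7, 75.1 and 94.7, a difference of 0.74 ± 0.17 (SE, limma adjusted p = 0.0144) lost without MMF replicate 3 (0.053). Since both genes border it, which of them this element belongs to cannot be told from accessibility. With median centring the calls at chr10:67102677-67103116 and chr10:67087218-67087860 were lost (limma adjusted p = 0.108 and 0.12). With centring on the median ratio they were lost too (0.0546 and 0.0578). A further intron region, at chr10:67202593-67202808, was gained, with levels of 22.0, 19.8 and 16.3 in the MMF samples.

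At the main scaling, neither Jmjd1c promoter moved beyond the spread between samples. The internal start at chr10:67185484-67186080 was the most accessible promoter of the 9 genes, with levels of 106, 99.9 and 88.7 in control and 83.6, 93.5 and 87.3 with MMF, and a difference of -0.15 (limma adjusted p = 0.562). The first start of the basic annotation, at chr10:67126304-67127583, had levels of 35.7, 28.9 and 30.7 against 30.8, 34.0 and 34.0, a difference of 0.06 (limma adjusted p = 0.847) that turned negative under both centrings. The 2 strongest regions outside Jmjd1c promoters were the promoter of the neighbor Nrbf2 at chr10:67285150-67285790, with 81.9 ± 10.6 and 75.7 ± 2.15 (SD, n = 3, limma adjusted p = 0.712), and a region in Reep3 at chr10:67069013-67069673, with 68.3 ± 6.12 and 82.3 ± 2.74 (SD, n = 3, limma adjusted p = 0.275).

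**Figure D3:**
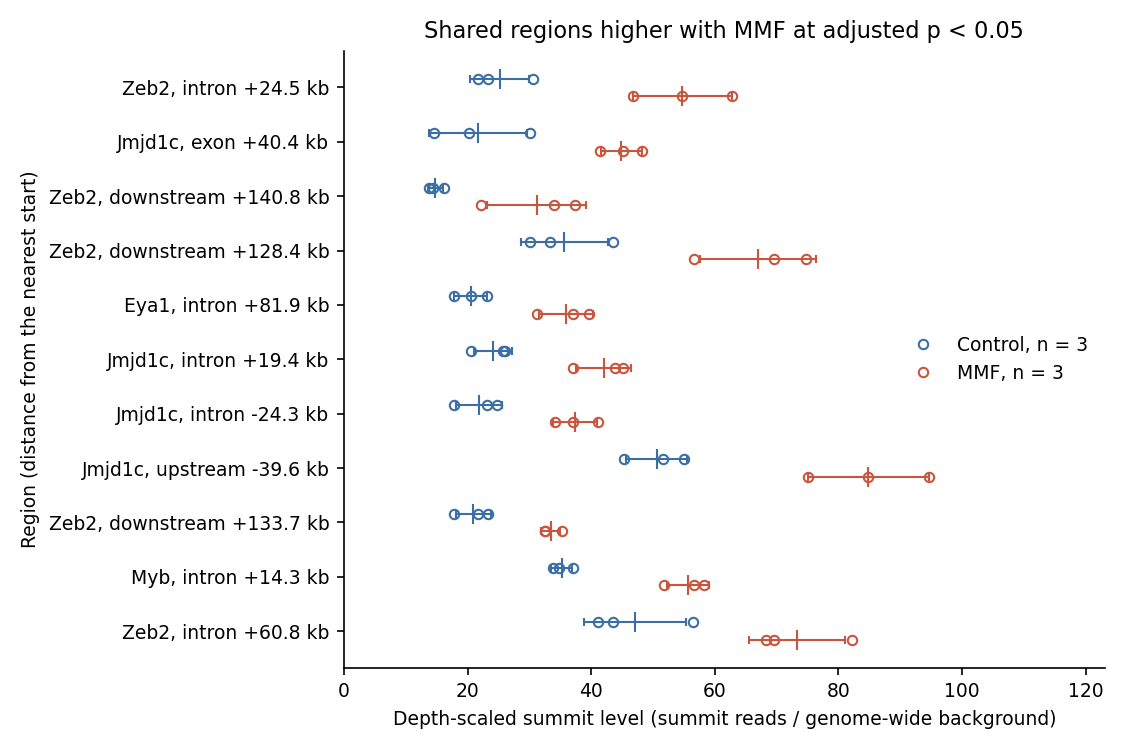
Depth-scaled summit level (x axis) in each of the 3 control and 3 MMF samples for the 11 regions called higher with MMF. The mean (tick) and SD (bar) are shown. Regions are ordered by log2 difference and named by the distance from the nearest start of the named gene, not of any gene. In every region the lowest MMF sample lies above the highest control sample.

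Eya1 encodes a phosphatase and transcriptional coactivator that works with homeodomain partners. Of its 7 regions, 5 were shared, which makes it the locus with the largest shared fraction. The repeat element in an intron at chr1:14222423-14222851 had levels of 20.6, 23.2 and 17.7 in control and 39.6, 31.2 and 37.0 with MMF, a difference of 0.81 ± 0.18 (SE, limma adjusted p = 0.012), called with any 1 sample left out. It was not called with median centring (limma adjusted p = 0.0913), by log2 fold enrichment (0.142) or by any of 3 ranks (0.0869 to 0.63). The most accessible region outside the Eya1 promoters was intronic, at chr1:14218587-14219182, with 35.7 ± 8.21 in control and 49.7 ± 12.1 with MMF (SD, n = 3, limma adjusted p = 0.176). Both promoter regions had negative differences that were not called at the main scaling. Both were called lower with median centring (limma adjusted p = 0.019 at chr1:14304569-14305009 and 0.0429 at chr1:14309606-14310403). Only the former was called lower with centring on the median ratio (0.0357). At chr1:14304569-14305009, levels were 39.8, 27.5 and 38.7 in control and 23.1, 25.5 and 23.7 with MMF, so the groups did not overlap, with a difference of -0.53 ± 0.19 (SE, limma adjusted p = 0.0736). Without Control replicate 2 this difference was -0.71 and passed (limma adjusted p = 0.0297). At chr1:14309606-14310403 the difference was -0.27 with overlap (limma adjusted p = 0.373).

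Hmgb3 encodes an HMG-box chromatin protein of hematopoietic stem and progenitor cells. It had 5 regions, 2 of them shared. Neither was called at the main scaling, and both were called lower with median centring (limma adjusted p = 0.0319 at the promoter and 0.044 at the upstream region). The promoter region at chrX:71555491-71557071 had levels of 46.6, 68.0 and 59.7 in control and 45.1, 48.2 and 44.4 with MMF, a difference of -0.32 (limma adjusted p = 0.255). The upstream region at chrX:71524249-71524644 had 17.8, 26.1 and 27.4 against 20.9, 18.4 and 17.8, with overlap and a difference of -0.30 (limma adjusted p = 0.339). Another region, at chrX:71506668-71506938, was in 1 control list and in all 3 MMF lists at levels of 12.1 to 17.8.

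**Figure D4:**
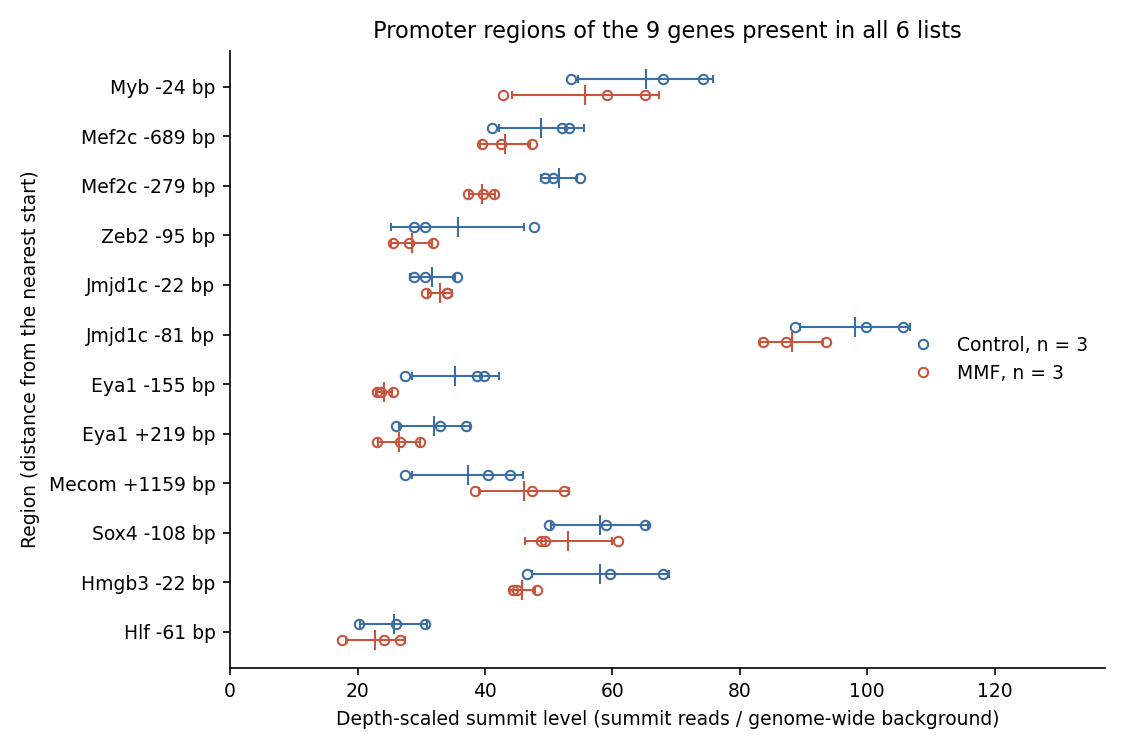
Depth-scaled summit level (x axis) of the 12 promoter regions of the 9 genes that were present in all 6 lists, for 3 control and 3 MMF samples, with the mean (tick) and SD (bar) and the distance of the summit from the nearest start in bp. A pair of regions, Mef2c at -279 bp and Eya1 at -155 bp, have every MMF sample below every control sample, and none was called at the main scaling.

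Ordered by mean level over the 6 samples, the strongest member promoters were Jmjd1c (internal start, 93.1), Myb (60.5), Sox4 (55.6), Hmgb3 (52.0), Mef2c (46.0 and 45.6) and Mecom (41.7). Jmjd1c (first start, 32.3), Zeb2 (32.1), Eya1 (29.7 and 29.3) and Hlf (24.2) followed. The SD within a group was 1.25 to 11.5 level units at these promoters, so most neighbors in this order do not differ beyond their spread, and the Jmjd1c internal start stands above the others in all 6 samples. Levels are per summit and are not corrected for the width of a region.

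Promoters of other MLL-AF9 target genes are given for comparison. Of Hoxa5, Hoxa7, Hoxa9, Hoxa10, Meis1, Pbx3, Myc, Cdk6, Bcl2, Runx2 and Flt3, 10 of 11 had a shared promoter region, with Hoxa5 as the exception. Of these 10, 0 were called in either direction by limma, 9 had a negative difference, 5 had every MMF value below every control value, and the median difference was -0.35. Of all shared promoter regions 16.7% had every MMF value below control, and their median was -0.09, while the 9 loci had 2 of 14 and -0.17. The 10 are the promoter region of highest mean level of each gene. The 14 are every shared promoter region in the windows, including those of Reep3 and Nrbf2. The difference between these lists was not tested. With samples centred on their median, 6 of the 10 were called lower, as were 5 of the 14 promoter regions in the 9 loci, against 28.7% of all shared promoter regions. Those 5 were Mef2c (chr13:83524141-83524947, -0.74), Jmjd1c (chr10:67185484-67186080, -0.51), both of Eya1 (-0.89 and -0.62) and Hmgb3 (-0.68).

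The number of peaks also differed. The 9 loci held 95, 94 and 90 peaks in the control lists and 128, 116 and 115 in the MMF lists, a mean of 93.0 ± 2.65 against 119.7 ± 7.23 (SD, n = 3). Every MMF list held more (p = 0.1 by a two-sided exact permutation test, the least that 3 against 3 can reach). The ratio of 1.29 was below the 1.37 of the whole lists, and the loci took 0.151 ± 0.00261% of a control list and 0.142 ± 0.00665% of an MMF list (SD, n = 3), with p = 0.1 by a two-sided exact permutation test. With each list cut to its 58496 most significant peaks, the difference reversed, and the loci held fewer peaks with MMF by -10.3 on average (exact permutation test, p = 0.1).

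**Figure D5:**
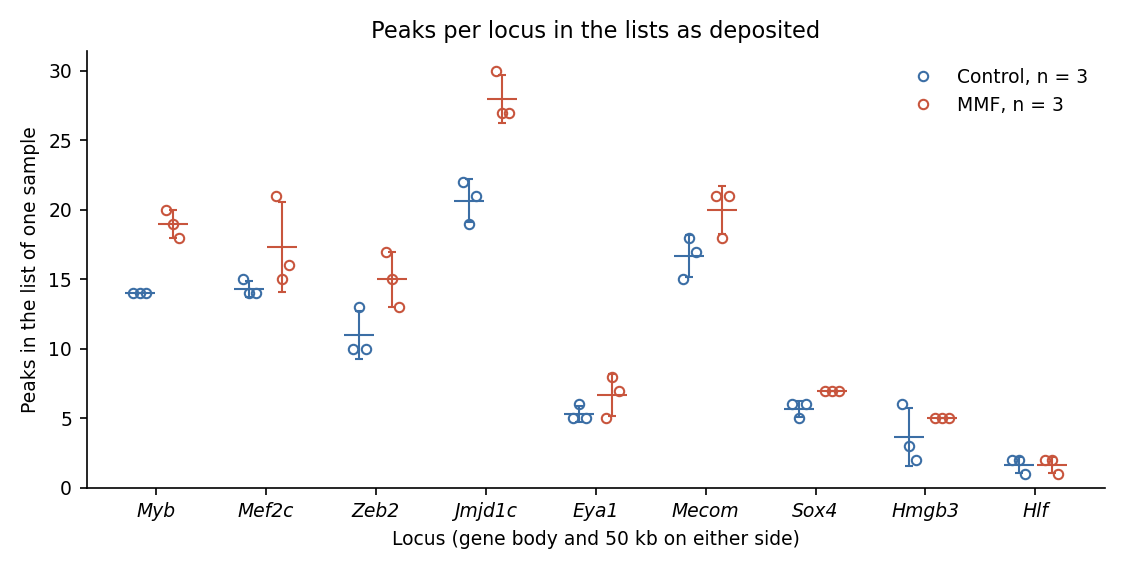
Number of peaks in each deposited list (y axis) that overlap a locus, by locus (x axis), for 3 control and 3 MMF samples, with the mean and SD. Myb, Jmjd1c and Sox4 have every MMF list above every control list, and Hlf has 1 or 2 peaks in every list.

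Gained regions were 4 of 153, or 2.61%, against 6.0% of all 112852 regions, and lost regions 0 of 153, against 0.182%. The 4 were those described at Myb, Jmjd1c and Mecom. At equal list length, 1 was gained, the Myb region at chr10:21192544-21192721, and 3 were lost, of 153, where 1.79% of all regions were gained and 1.05% lost. The lost ones, chosen here by their values, were the Mecom region beside Mecomos at chr3:30013020-30013419, the Zeb2 region at chr2:45117098-45117537, and the Mef2c intron region at chr13:83539879-83540461. The last had a peak in all 6 deposited lists, with levels of 20.6, 20.3 and 14.5 in control and 14.3, 14.2 and 13.3 with MMF (difference -0.39, limma adjusted p = 0.175). Leaving out MMF replicate 3 raised the gained count to 9, and leaving out Control replicate 2, MMF replicate 1 or MMF replicate 2 raised it to 7. Fewer lists have to match when a sample is left out, so this count could not fall.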

How the data were processed

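The authors carried out ATAC-seq on LSCs, with 3 samples of each group. Per the labels and the methods, the authors trimmed reads, mapped them with Bowtie2 to mm10 and used MACS2 to call peaks in every sample separately. The deposited lists give each peak's fold enrichment as a ratio over local background, and its p and q as −log10 values. MACS2 options and versions are not given in the sources used here.

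Chromosomes 1 to 19, X and Y were used. Summit reads and background were solved from the fold enrichment and the Poisson −log10 p of the deposited peaks, to a relative tolerance of 0.0001, and 100.0% of peaks gave whole reads. A read summit is a maximum over a called peak, so levels describe called peaks only and carry counting error. Peaks were merged at an overlap of at least 1 bp. A promoter reached 1000 bp to each side of a start of a protein-coding gene in the GENCODE M21 basic annotation, and a region's place was taken from it. Regions at starts of noncoding genes alone were counted as non-promoter.

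Shared regions were tested with limma 3.58.1 (lmFit and eBayes) in R 4.3.3 on log2 level, without a block or pseudocount, with Benjamini-Hochberg adjustment over 41182 regions. Scripts were tested on simulated data. Motifs were read from GRCm38 with pysam 0.24.0, and Python 3.11.15, scipy 1.17.1 and pandas 2.3.3 were used. Alternatives changed the scaling, measure, block, samples, read minimum, list length, q and flank. Named regions were all member promoters, the 2 strongest other regions, gained, lost and called regions and the largest non-overlapping difference of each locus. The 9 genes, lists and tests were chosen with earlier results of these data known. The reads were not used. The markers of 1 further cell type are not reported here.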

Additional observations from a re-analysis of the deposited data

How the results depend on the processing

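Under the scalings and measures tried, the 11 regions called higher in the loci became 2 (with 9 lower) when median centred, 6 (with 3 lower) when centred on the median ratio, 5 by log2 fold enrichment, 6 by rank of fold enrichment in the whole list, 0 by its rank among shared regions (limma, 8 higher and 5 lower at an unadjusted p under 0.05) and 8 by rank of −log10 p. All these regions called higher lay outside promoters. Over all shared non-promoter regions, 24.5% were called higher at the main scaling. In the order given, the alternatives called 9.2%, 13.3%, 14.9%, 7.76%, 1.93% and 12.5% of them higher. With at least 20 summit reads, 10 regions of the loci were called higher and 1 lower. Of all non-promoter regions with that minimum, 32.3% were called higher. Flanks of 20 kb and 100 kb gave 11 and 14. With 1 sample left out they were 8 to 12, with 0 to 1 called lower, where 4683 to 6485 of all 41182 shared regions were called higher. Gained regions were then 5 to 9 and lost regions 0 to 1, counts that cannot fall because fewer lists have to match. At equal list length, gained and lost regions were 1 and 3. A stricter overlap requirement changed no call, because a merged region contains its peaks whole. The difference in the number of peaks, 26.7, was -10.3 at equal list length, 21.3 at a −log10 q of at least 5, 21.3 and 31.7 with flanks of 20 kb and 100 kb, and 22.5 to 29.0 with 1 sample left out. The share of the list differed by -0.00974 percentage points, and by -0.0177 at equal list length, -0.0202 at the stricter q, -0.00599 at 20 kb (exact permutation p = 0.3), -0.0189 at 100 kb and -0.0129 to -0.00628 with 1 sample left out. The cause of these changes was not tested.

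Of 37 named shared regions, those below changed sign, on the scale of each alternative. By log2 fold enrichment, differences were 0.0097 at the Myb promoter, 0.279 and 0.0865 at Mef2c 83523612 and 83524141, 0.151 at the Jmjd1c internal start, 0.0055 at the Nrbf2 promoter, and 0.120 and 0.124 at the Eya1 promoters. By rank of fold enrichment in the whole list they were 0.253 and 0.0514 at those Mef2c regions, 0.275 at the Jmjd1c internal start, and 0.0914 and 0.0777 at Eya1. By rank of −log10 p they were 0.0727 at Mef2c 83523612, 0.127 at the Jmjd1c internal start and 0.0601 at Nrbf2. By rank among shared regions they were -0.0225 at the Myb intron element, 0.132 at the Jmjd1c internal start, -0.195 at Eya1 14218587 and -0.239 at Mecom 30332440. Median centring gave -0.189 and -0.205 at Mef2c 83571789 and 83609005, -0.0827 at Jmjd1c 67069013, -0.297 at its first start, -0.174 and -0.0312 at Mecom 30332440 and 30507852, and -0.317 at Sox4 28958218. Median-ratio centring gave -0.0119 and -0.0283 at these Mef2c regions, -0.121 at the first Jmjd1c start and -0.140 at that Sox4 region. With 1 sample left out, differences ran from -0.0068 to 0.144 at the first Jmjd1c start, from -0.113 to 0.383 at Mecom 30332440, from -0.129 to 0.196 at that Sox4 region and from -0.333 to 0.0016 at the Hlf promoter.

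Deviations of same-numbered samples correlated at -0.00128, 0.00388 and -0.00257. Because counting error at few summit reads could hide a pairing, this cannot settle whether the replicate numbers pair the samples. With the replicate number as a replicate block, 12 regions were called higher, the added 1 being Myb 21206270 (adjusted p = 0.0344), and no other call changed. Depth limits the weak regions, whose summits hold few reads.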
